A study of Mus musculus with 2 samples.

Results

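The cytosolic ribosomal protein genes were followed through the cell classes of mouse pancreatic tumours and across 2 treatments. They were chosen by symbol alone, as Rpl or Rps followed by a number and at most 1 letter, together with Rplp0, Rplp1, Rplp2 and Rpsa, and without the Rps6k kinases. The rule took 80 of the 32285 genes listed, 49 of the large and 31 of the small ribosomal subunit. All 80 had at least 1 UMI (unique molecular identifier, a count of 1 captured mRNA molecule) in the cells kept. Of these, Rpl10l had 1 UMI over both libraries, Rpl39l 93 and Rpl3l 399, and the next lowest, Rps27l, had 20748. The rule left out a few cytosolic ribosomal proteins with other symbols, among them Rps3a1, Fau, Rack1 and Rpl36al, which are described apart.

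The study compared tumours of mice given phosphate-buffered saline (PBS) with tumours of mice given cmExoaCD11b, with 1 single-cell library per treatment. cmExoaCD11b are exosomes of mouse embryonic fibroblasts that carry IL-12 mRNA and cGAMP, an agonist of the innate immune sensor STING, and bear an antibody against CD11b, a surface integrin of myeloid cells. Both groups were male C57BL/6J mice, aged 5 to 6 weeks when obtained and older when sampled, with orthotopic tumours of K210 cells, a line from a genetic mouse model of pancreatic cancer that carries, among other alleles, Trp53 fl/fl and Pdx1-Cre, which is active in pancreatic epithelium, and the only stated difference was the intraperitoneal treatment, at 5 µg cGAMP per mouse. Each library pooled 3 mice 48 h after treatment, so the groups have no replicates, no test between them was possible, and every interval given is an exact 95% interval for counting error alone.

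Each cytosolic ribosome holds 1 copy of nearly every one of these proteins, and cells that grow or divide make them in bulk. Their mRNAs begin with a 5′ terminal oligopyrimidine (TOP) tract, a C followed by an unbroken run of C and T at the transcription start, through which the mTOR pathway and the protein Larp1 control their translation and storage together. Neutrophils build most of their granule proteins as dividing precursors in the marrow and shut down much of their biosynthesis as they mature, while lymphocytes keep a large share of their mRNA in ribosomal protein messages.

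The start sites of 5 genes on which the neutrophil results below turn are shown first, because the TOP tract is the feature known to be common to the family. Each window holds 15 bases before and 15 bases from the start annotated by RefSeq on GRCm38.p6, in the sense direction, so its second part is the beginning of the first exon and its 5′ UTR. Capitals mark a run of at least 6 pyrimidines that begins with C.
Rps9: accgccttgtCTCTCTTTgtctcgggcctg
Rps18: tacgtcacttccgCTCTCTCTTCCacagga
Rps27: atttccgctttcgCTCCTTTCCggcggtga
Rpsa: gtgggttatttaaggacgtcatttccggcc
Rpl37: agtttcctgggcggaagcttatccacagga
Rps9 lies at chr7:3704026-3704055 on the plus strand. Rps18 lies at chr17:33955651-33955680 and Rps27 at chr3:90213634-90213663, both on the minus strand. Rpsa lies at chr9:120127751-120127780 and Rpl37 at chr15:5116598-5116627, both on the plus strand. A run was present in 35 of the 60 genes of the family with an entry (58.3%) and in 6883 of 27025 genes in all (25.5%). It could lie anywhere in the window, also before the annotated start, so these are not counts of TOP tracts. The search covered the sense strand only, and the absence of a run, as in the windows of Rpsa and Rpl37, says only that these letters are not in the 30 annotated bases.

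After filtering, 6818 cells were kept from PBS and 7048 from cmExoaCD11b, with medians of 3471.5 and 4124 UMIs per cell, and 16 cell barcodes were found in both libraries. Cells were placed in classes by at least 2 marker genes whose UMIs lay above what free RNA in the droplets could give. Plasma cells needed more than 2. No ribosomal protein gene was a marker. The gate first planned took any UMI of a marker, and put 1753 and 2114 cells in 2 classes at once but only 66 and 100 cells among T cells, so the limit against free RNA was added after the data were seen. The 12 neutrophil markers summed to 68690 and 70676 CPM in neutrophils and to at most 1639 CPM in any other class, where CPM gives the UMIs of a gene per 1000000 UMIs of the class. The same markers set the gate, and cells that met it and another gate were left out. These sums thus follow in part from the gating. Monocytes and macrophages were less well separated. The 4 monocyte markers summed to 3200 and 2836 CPM in monocytes and to 2253 and 1358 CPM in macrophages. A cell that met both gates was counted as a macrophage, which in part sets these sums. Dendritic cells likewise went before monocytes, and plasma cells before B cells. With this order, 2403 and 1625 cells in PBS and cmExoaCD11b met no gate, and 211 and 283 met at least 2.

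**Figure D1:**
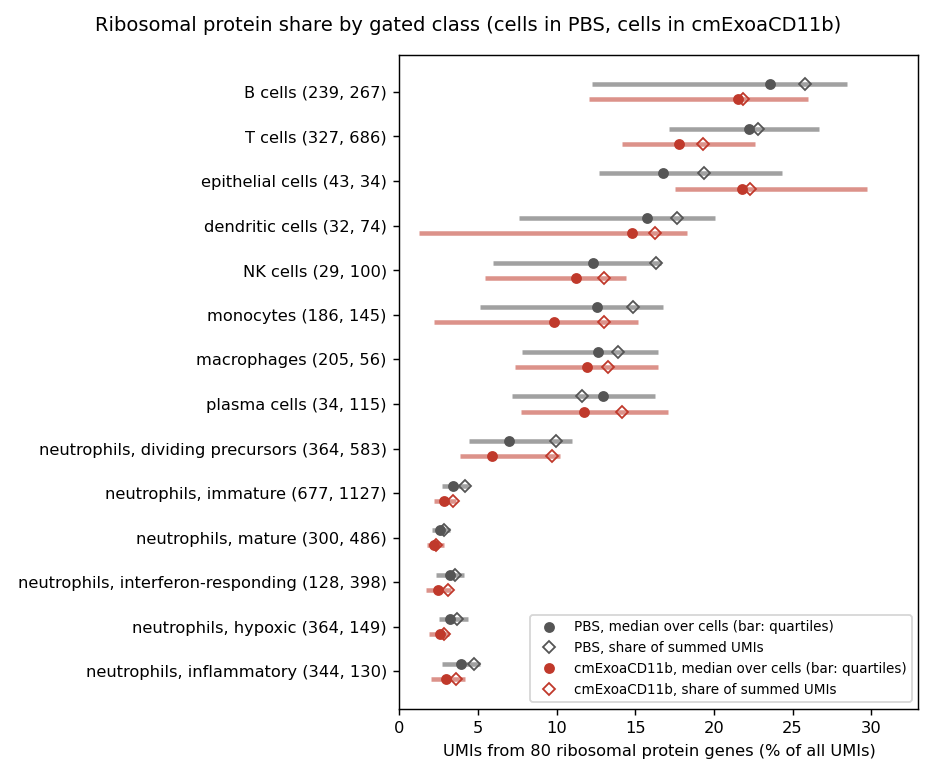
Share of UMIs from the 80 cytosolic ribosomal protein genes (x axis, % of all UMIs) in each gated class or neutrophil stage, for PBS (grey) and cmExoaCD11b (red). Filled points are medians over cells with bars for the quartiles, open diamonds the share of summed UMIs. B cells, T cells and epithelial cells lie at the right at 19.3% to 25.8% of summed UMIs, and mature neutrophils at the left at 2.35% to 2.81%.

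B cells and T cells gave a large share of their mRNA to ribosomal proteins and neutrophils the lowest share of the 9 classes. In B cells the 80 genes took 25.8% of summed UMIs in PBS (25.7% to 25.8%) and 21.9% in cmExoaCD11b (21.8% to 21.9%). In T cells they took 22.8% and 19.3%, and in neutrophils 6.40% and 6.11%. The T cell share was thus 3.56 times the neutrophil share in PBS and 3.16 times in cmExoaCD11b, and the B cell share was 1.13 times the T cell share in both libraries.

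Between these ends lay the other classes, in an order that differed in places between the libraries. Epithelial cells held 19.4% in PBS and, highest of all classes in that library, 22.3% in cmExoaCD11b, with dendritic cells at 17.7% and 16.2%, and natural killer (NK) cells at 16.3% and 12.98%. Monocytes and macrophages were neighbours, at 14.9% and 13.9% in PBS and 13.01% and 13.2% in cmExoaCD11b. Macrophages were lower than monocytes in PBS (ratio 0.933, 0.929 to 0.938) and slightly higher in cmExoaCD11b (1.017, 1.008 to 1.025). Plasma cells, which translate immunoglobulin in bulk, held 11.6% and 14.2%. Cells within a class varied far more than the counting intervals, for instance between quartiles of 5.11% and 16.8% for PBS monocytes. The numbers of cells were small for epithelial cells (43 and 34), plasma cells (34 and 115), dendritic cells (32 and 74) and NK cells (29 and 100).

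Depth differed between classes, and the T cell to neutrophil contrast was present within a narrower range of depth. Among cells of 2000 to 8000 UMIs, a window chosen after the data were seen, the T cell share was 6.26 times the neutrophil share in PBS and 7.28 times in cmExoaCD11b. Median depths there still differed, at 3521 and 3561 UMIs in neutrophils against 4904.5 and 4355.5 in T cells. The myeloid shares were much lower in this range, at 7.85% and 7.29% in monocytes, 8.45% and 5.86% in dendritic cells (11 and 27 cells) and 7.84% in PBS macrophages, with 11.7% in the 19 macrophages of cmExoaCD11b. The window leaves out most dividing precursors of neutrophils, which were the deepest neutrophils and had the highest shares among them.

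The 5 most abundant family members by CPM over the gated cells were Rps9, Rps24, Rpl13, Rpl23 and Rps27a, which together made up 11.6% of the family's UMIs. In PBS, Rps24, whose human counterpart is mutated in Diamond-Blackfan anaemia, had 1412 CPM in neutrophils, 6253 in T cells and 7689 in B cells. Rps9, a protein of the small subunit's decoding side, had 1932 CPM in neutrophils and 4042 in B cells, a narrower gap. Rpl13 and Rpl23, both of the large subunit, had 1280 and 1432 CPM in neutrophils against 5328 and 5085 in T cells. Rps27a, which is translated as a fusion with ubiquitin, had 1602 CPM in neutrophils and 3194 in T cells. Rpl10, which joins the large subunit late and is needed for it to bind the small one, had 882 CPM in neutrophils, 2389 in T cells and 2915 in B cells. Each of these genes was lowest in neutrophils among the 3 classes named.

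The make-up of the family was less variable than its total. For the 76 members with at least 50 UMIs in each class, the share of a member within the family's UMIs differed by a median of 1.48-fold in PBS and 1.55-fold in cmExoaCD11b between its highest and its lowest class, and it exceeded 2-fold for 7 and 9 members. Neutrophils stood out by Rps9, with 3.02% and 3.44% of the family's UMIs, 1.69 times the mean over classes in each library. T cells held more of Rps15a, a small subunit protein (2.86% and 2.57%, 1.43 and 1.38 times the mean), and of Rpl13a, a large subunit protein known outside the ribosome from an interferon-gamma-activated translation silencing complex (1.33 and 1.38 times). B cells and NK cells held more of Rps27, a zinc-finger protein of the small subunit, at 1.68% and 1.44% in B cells. Epithelial cells held more of Rps2, near the mRNA entry of the small subunit, at 2.70% and 2.83%. Macrophages held more of the small proteins Rps29 and Rps28, dendritic cells of Rpl14, and monocytes of Rps9 and Rps25, each between 1.20 and 1.35 times the mean. These members were taken from the 2 per class with the largest excess in both libraries, so the excess itself is a description. The class named was not always the highest. Rpl14 was highest in plasma cells and Rps9 and Rps25 in neutrophils in both libraries, and Rps28 in monocytes in cmExoaCD11b.

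Rps27l, a paralog of Rps27 that is known as a p53 target, had the most uneven distribution of the abundant members. In PBS, plasma cells held 575 CPM (525 to 629), and in cmExoaCD11b they held 673 CPM (644 to 702). B cells held 133 CPM (113 to 154) and 71.2 CPM (57.6 to 87.1), and T cells 199 and 101 CPM. Its share of the family's UMIs in plasma cells was 2.75 and 2.63 times the mean over classes, and between the highest and the lowest class it differed by 9.63-fold in PBS and 14.6-fold in cmExoaCD11b. Plasma cells also held a larger share of Rpl41, the shortest protein of the family (2.68% and 1.86%).

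The other paralogs were scarce or absent. Rpl3l, which is known as a form of Rpl3 in heart and skeletal muscle, had 216 and 183 UMIs in all kept cells. In neutrophils Rpl3l reached 5.35 CPM in PBS (147 UMIs) and 3.81 CPM in cmExoaCD11b (152 UMIs), whereas T cells had 0 UMIs in both libraries, which allows up to 1.48 and 0.886 CPM. Rpl39l, known from male germ cells, had 65 and 28 UMIs. Rpl10l, an intronless copy of Rpl10 known from the testis, had 0 and 1. Rpl22l1, a paralog of Rpl22 that the symbol rule leaves out, was by contrast well covered, with 727 CPM in PBS and 546 CPM in cmExoaCD11b in T cells and 229 and 222 CPM in neutrophils. Rpl7l1, also outside the rule, had 2422 and 2940 UMIs in all.

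Along the neutrophil lineage the share of ribosomal protein mRNA was lower at each later stage. Stages were gated by markers of division, of granules and of maturity that include no ribosomal protein gene. Dividing precursors (364 and 583 cells) held 9.94% of UMIs in PBS and 9.68% in cmExoaCD11b. Immature neutrophils (677 and 1127 cells) held 4.19% and 3.39%, and mature neutrophils (300 and 486 cells) 2.81% and 2.35%. The precursor share was 3.53 times the mature share in PBS (3.502 to 3.567) and 4.12 times in cmExoaCD11b (4.09 to 4.15). The stages had the same order in both libraries, by medians over cells as well (6.95%, 3.44% and 2.57% in PBS, and 5.86%, 2.86% and 2.23% in cmExoaCD11b). Within a narrower range of depth, described below, the medians of immature and mature cells had the other order in cmExoaCD11b.

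**Figure D2:**
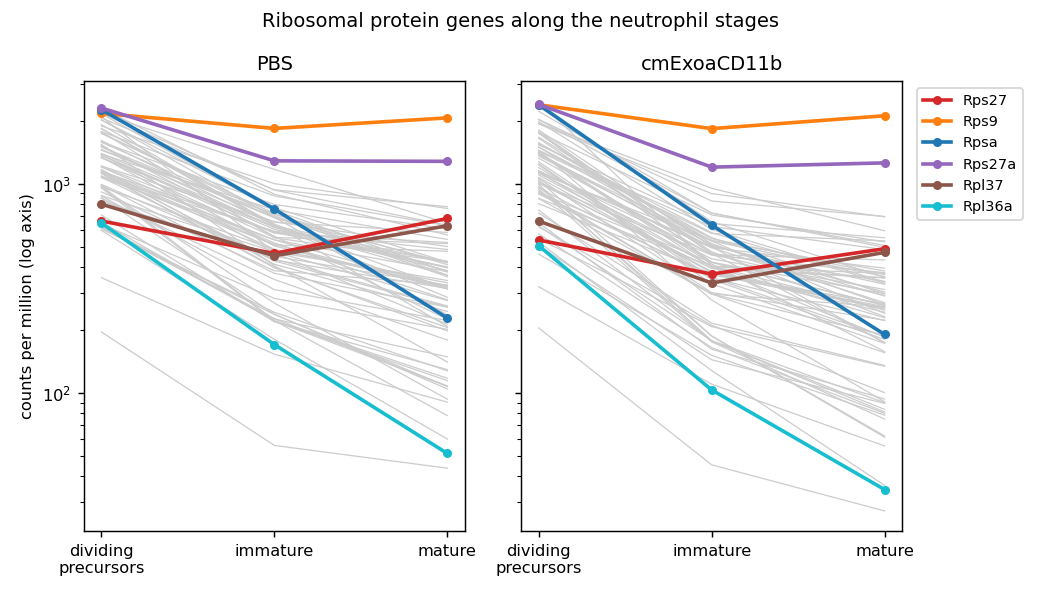
CPM of each ribosomal protein gene (thin lines, log axis) in dividing precursors, immature and mature neutrophils, in PBS and cmExoaCD11b, for 77 genes. In both libraries nearly all lines run downward from left to right, and the coloured lines of Rps27, Rpl37 and Rps9 turn up at the second step.

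The difference was shared by most members. Of 78 members with enough UMIs, 77 were lower in immature neutrophils than in dividing precursors in each library, and 74 in PBS and 73 in cmExoaCD11b were lower at both steps. Of all genes tested, 70.4% in PBS and 68.6% in cmExoaCD11b were lower at the first step, and 44.1% and 47.7% at both. The median log2 ratio of mature neutrophils to dividing precursors was -1.98 in PBS and -2.26 in cmExoaCD11b. Within the dividing precursors, the cells with UMIs of Elane or Mpo, which encode proteases and peroxidase of the earliest granules, held 16.3% and 14.9%, and the cells without held 6.03% and 5.38%. The ratio between them was 2.70 in PBS and 2.77 in cmExoaCD11b, a split chosen after its values were seen.

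Other neutrophil states lay near immature and mature cells, in an order that depended on depth. Neutrophils with interferon-response markers held 3.55% and 3.08%, those with hypoxia markers 3.68% and 2.83%, and those with inflammatory markers 4.72% and 3.62%. Among cells of 2000 to 8000 UMIs these shares were 3.38% and 2.54%, 3.63% and 2.85%, and 4.35% and 3.34%, all above the immature cells of that range (3.21% and 2.35%). Transcripts of S100a8 and S100a9, the calprotectin genes, are a large part of neutrophil mRNA and moved with the stages, at 18.9%, 27.1% and 18.9% of UMIs in precursors, immature and mature cells of PBS and 15.6%, 23.0% and 16.0% in cmExoaCD11b. Their part in the ribosomal protein shares was not tested.

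From immature to mature neutrophils, 46 of 78 members (59.0%) in PBS and 48 of 78 (61.5%) in cmExoaCD11b were lower by at least 1.5-fold, and 43 were so in both. Among all genes tested the same limit was passed downward by 26.1% in PBS and 29.6% in cmExoaCD11b. Upward it was passed by 22.8% and 17.7% of all genes and by 1 member, Rpl3l. The median log2 ratio of the members was -0.70 and -0.68, against 0.00 and -0.12 for all genes.

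Depth moved with these stages, since the median cell held 26531.5 and 25287 UMIs among precursors, 13160 and 11786 among immature and 4971 and 4420.5 among mature neutrophils. Among cells of 2000 to 8000 UMIs, which narrowed the gap to medians of 6134 and 6293 UMIs in immature and 4486.5 and 4290 in mature cells without closing it, 22 of 77 members (28.6%) in PBS and 19 of 77 (24.7%) in cmExoaCD11b were lower in mature than in immature cells by 1.5-fold, against 20.7% of all genes in both libraries. The summed share there was 3.21% in immature and 2.80% in mature cells of PBS, and 2.35% and 2.25% in cmExoaCD11b. By medians over cells it was 2.89% in immature and 2.71% in mature cells of PBS. In cmExoaCD11b these medians were 2.07% and 2.22%, so the order was reversed. The difference between immature and mature neutrophils was much smaller in this range, with a ratio of shares of 0.873 in PBS and 0.956 in cmExoaCD11b in place of 0.671 and 0.693. With gates on cells thinned to 1000 UMIs the count was 73 in PBS, and with gates on any marker UMI it was 26 in cmExoaCD11b. Both gates changed which cells made up the stages. The thinned gates left 4 dividing precursors and 965 immature cells in PBS, in place of 364 and 677. The gates on any marker UMI held 3279 immature and 111 mature cells in cmExoaCD11b, in place of 1127 and 486. These counts are thus not a check on depth alone. The window held 84 and 203 immature cells, the shallow end of their stage. Its few dividing precursors, 11 in PBS and 17 in cmExoaCD11b, held 8.73% and 5.24%.

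**Figure D3:**
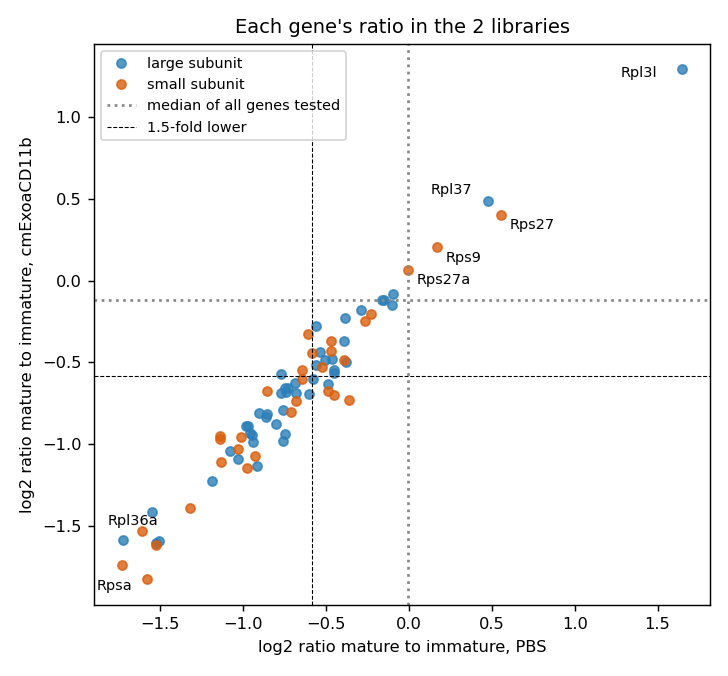
Log2 ratio of mature to immature neutrophils for each ribosomal protein gene in PBS (x axis) and cmExoaCD11b (y axis), coloured by subunit. Dotted lines mark the median of all genes tested and dashed lines 1.5-fold lower, and 43 genes lie below both dashed lines while Rpl3l, Rpl37, Rps27 and Rps9 lie above 0 in both libraries.

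Among the 5 members that were lowest in mature relative to immature neutrophils were Rpsa, Rpl36a, Rps18 and Rps20. Rpsa, a small subunit protein that is also known as a laminin receptor precursor, had 758 CPM in immature and 228 CPM in mature cells of PBS, and 635 and 190 CPM in cmExoaCD11b, a ratio of 0.301 and 0.300. Rpl36a went from 170 to 51.4 CPM in PBS and from 104 to 34.6 CPM in cmExoaCD11b. These 2 genes, 1 of each subunit, had about the same ratio in both libraries.

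Rps18 and Rps20, both of the head of the small subunit, followed with 406 to 141 CPM and 636 to 208 CPM in PBS. In cmExoaCD11b they went from 278 to 90.8 CPM and from 502 to 174 CPM. Among cells of 2000 to 8000 UMIs these 4 genes were also lower in mature cells, with log2 ratios from -1.82 for Rpl36a to -1.004 for Rps18 in PBS and from -1.21 for Rps20 to -0.83 for Rpsa in cmExoaCD11b. Rps18 carries a pyrimidine run at its annotated start and Rpsa does not, as their windows above show.

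With cells of all depths, a few members kept their level or were higher in mature neutrophils. Rps27 had 465 CPM in immature and 683 CPM in mature cells of PBS, and 370 and 489 CPM in cmExoaCD11b. Rpl37, a zinc-binding protein of the large subunit, had 453 and 630 CPM in PBS and 335 and 470 CPM in cmExoaCD11b. Rps9 had 1839 and 2065 CPM in PBS, and 1835 and 2114 CPM in cmExoaCD11b. Rps27a was level, with ratios of 0.995 and 1.05. In the same range Rps27, Rpl37 and Rps9 were again higher in mature cells, by 0.99, 0.71 and 0.71 in log2 in PBS and by 0.38, 0.71 and 0.71 in cmExoaCD11b.

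Rpl3l had the highest mature to immature ratio, from 5.09 to 16.0 CPM in PBS and from 4.77 to 11.7 CPM in cmExoaCD11b, on 27 and 29 UMIs in mature cells. The gene Msrb1, a methionine sulfoxide reductase, starts 499 bases downstream of Rpl3l on the same strand. Its level went from 633 CPM in dividing precursors to 910 CPM in immature and 2113 CPM in mature cells of PBS, and from 741 to 1101 and 1924 CPM in cmExoaCD11b. The part of reads from Msrb1 in the counts of Rpl3l was not tested. Reads may also be split between near-identical genes for Rpl36a and Rpl36al and for Rps27 and Rps27rt, and for members with many processed pseudogenes such as Rpsa, Rpl9 and Rpl10, so their values are uncertain to that extent.

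The libraries were compared next, to ask whether ribosomal protein mRNA differed after cmExoaCD11b in each class. The share was lower in cmExoaCD11b than in PBS in 7 of the 9 classes with at least 20 cells. The ratio of cmExoaCD11b to PBS was 0.849 in T cells (0.846 to 0.852), 0.849 in B cells (0.845 to 0.853), 0.875 in monocytes (0.870 to 0.881, but 1.01 with gates on thinned cells) and 0.796 in NK cells (0.782 to 0.811). It was nearer to 1 in neutrophils (0.956, 0.954 to 0.958), macrophages (0.954, 0.947 to 0.961) and dendritic cells (0.918, 0.909 to 0.926). Plasma cells and epithelial cells had ratios above 1, at 1.22 (1.21 to 1.23) and 1.15 (1.14 to 1.16).

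The same direction was present outside the cells. In droplets with at most 100 UMIs, which hold free RNA of each suspension, the share was 9.41% in PBS and 7.88% in cmExoaCD11b, a ratio of 0.838 (0.833 to 0.842). This ratio is close to those of T cells and B cells and lies between those of NK cells (0.796) and monocytes (0.875). The other classes had ratios nearer to 1 or above it. With 1 library per treatment, an effect of cmExoaCD11b and a difference between the 2 library preparations cannot be told apart. Interferon-induced genes also differed between the libraries, with a summed level of 5 such genes of 528 CPM in PBS and 1248 CPM in cmExoaCD11b in neutrophils and of 2300 and 3591 CPM in T cells, and their part in the ribosomal protein shares was not tested.

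**Figure D4:**
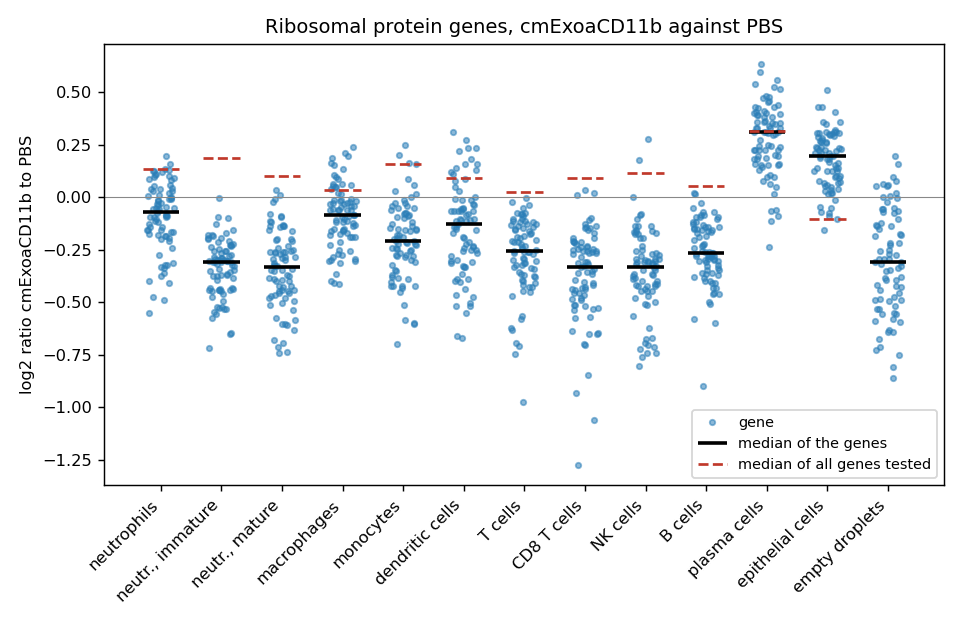
Log2 ratio of cmExoaCD11b to PBS for each ribosomal protein gene (points) in each gated class, with the median of the family and of all genes tested marked. The family's median is below that of all genes in every class but epithelial cells, and reaches -0.26 in T cells and -0.33 in NK cells.

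Gene by gene the differences in T cells, B cells and monocytes were small and broad. All 77 members tested in T cells had a ratio under 1, as did 47.8% of all genes, and 6 of the 77 (7.79%) were lower by at least 1.5-fold, against a background of 8.44% of all genes downward and 8.96% upward. In B cells 75 of 77 were under 1 (44.2% of all genes) and 2 (2.60%) were past 1.5-fold, against 6.34% downward and 8.17% upward among all genes. In monocytes 68 of 77 were under 1 (36.4% of all genes) and 3 (3.90%) were past 1.5-fold, against 8.41% and 17.2%. None was higher by 1.5-fold in these 3 classes. With the gate on any marker UMI, which keeps 66 and 100 T cells, 26 of 77 members were lower in T cells, against 7.43% of all genes. Centred on the median of all genes, 7 of 77 were lower in monocytes and 3 of 78 in neutrophils, against 12.3% and 7.55%. With the main gates the counts past 1.5-fold were under the background, unlike the T cell count with the gate on any marker UMI, and the members' medians were -0.26, -0.27 and -0.21 in log2, against 0.03, 0.05 and 0.16 for all genes. Most genes outside the family have a longer coding sequence than its median member, and the short ones are given apart below.

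In T cells Rps27l and Rpl41 were among the 3 members with the lowest ratios. Rps27l had 199 CPM in PBS and 101 CPM in cmExoaCD11b, a ratio of 0.509 (0.439 to 0.589). Rpl41 had a log2 ratio of -0.71. Rps14 and Rpl19, the latter a protein of the bridges between subunits, were among the 3 nearest to no difference, at -0.02 and -0.04. B cells had a like list, with Rps27l at -0.90, Rpl41 at -0.60 and Rpl36a at -0.58 at the low end, and Rps9 at -0.03, Rpl10 at 0.02 and Rpl19 at 0.02 at the high end. In monocytes Rps27l lay at the other end, at 0.25, with Rpl3 at 0.20 and Rps2 at 0.17, while Rps27, Rpl37 and Rpl36 were lowest at -0.70, -0.60 and -0.60.

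CD8 T cells had a ratio further from 1 than CD4 T cells. The share in CD8 T cells was 23.0% in PBS and 18.4% in cmExoaCD11b (ratio 0.8001, 0.795 to 0.805), and in CD4 T cells 22.7% and 20.4% (ratio 0.899, 0.893 to 0.905). CD8 T cells with UMIs of a granzyme, the cytotoxic proteases, held 22.2% and 17.2%, and those without 25.5% and 22.4%. The cells without a granzyme thus held 1.15 times the share of those with one in PBS and 1.30 times in cmExoaCD11b, on 31 and 57 cells against 79 and 188. In CD8 T cells 10 of 77 members (12.99%) were lower by at least 1.5-fold, against 12% of all genes, among them Rps27l (log2 ratio -1.28) and Rps2 (ratio 0.638). In NK cells 11 of 76 (14.5%) were, against 8.02% of all genes, on 29 PBS cells. The difference between the 2 kinds of T cell was not tested.

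By summed UMIs of all neutrophils, 0 of 78 members were past 1.5-fold in either direction, against 5.4% of all genes downward and 9.61% upward. The deep dividing precursors weigh heavily in these sums, and the ratio of the medians over cells was further from 1, at 0.814. The lowest were Rps27, at 730 CPM in PBS and 499 CPM in cmExoaCD11b (log2 -0.55), Rpl3l (-0.49) and Rps28 (-0.47). The highest was Rps2, at 1163 and 1332 CPM (0.20), followed by Rpl5 (0.16), which carries the 5S rRNA into the large subunit, and Rps6 (0.14), the substrate of the S6 kinases.

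In every neutrophil stage gated except the dividing precursors the ratio was further from 1 than in the whole class. It was 0.974 in dividing precursors (0.971 to 0.976), 0.809 in immature (0.806 to 0.813), 0.836 in mature (0.825 to 0.846), 0.869 in interferon-responding (0.853 to 0.886), 0.770 in hypoxic (0.756 to 0.784) and 0.767 in inflammatory neutrophils (0.754 to 0.780). Within the dividing precursors the ratio was 0.913 in cells with UMIs of Elane or Mpo and 0.893 in cells without. Each of these was further from 1 than in the whole class. The make-up of the class differed between the libraries, as cmExoaCD11b held 583 dividing precursors among 3657 neutrophils and PBS 364 among 3101. The ratio of the medians over neutrophils, in which each cell counts once, was 0.814. In mature neutrophils 76 of 78 members were under 1 (40.6% of all genes) and 10 (12.8%) were lower by 1.5-fold, against 6.47% of all genes.

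Plasma cells were the opposite case by summed UMIs, and the direction depended on how cells were weighted. Of 77 members 5 had a ratio under 1, as did 25.6% of all genes, and 2 were higher by 1.5-fold (2.60%), against 28.5% of all genes in this class. The median log2 ratio of the members was 0.31 and that of all genes 0.32. The median cell, however, held 12.96% in PBS and 11.7% in cmExoaCD11b. Rps2 and Rpl7 had the ratios past 1.5-fold, with Rps2 at 1.51, and were named after their values were seen. In epithelial cells 8 of 77 members were under 1, as were 60.6% of all genes, and the medians over cells, 16.8% and 21.8%, had the direction of the sums.

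Rpl10 had no single direction over the classes. Its ratio of cmExoaCD11b to PBS was 1.03 in neutrophils, 1.07 in macrophages, 0.860 in monocytes, 1.18 in dendritic cells, 0.905 in T cells and 1.01 in B cells. Plasma cells were highest at 1.33 and CD8 T cells lowest at 0.795, the directions of the family in both.

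The size of a member's difference between libraries went with the length of its coding sequence in most classes. By the longest coding sequence annotated for each gene, members span from 138 coding bases in Rpl41 to 1257 in Rpl4, with a median of 462. Shorter annotated forms of a gene were not used. In neutrophils the median log2 ratio was -0.17 for the shorter and 0.03 for the longer members, in monocytes -0.28 and -0.10, in T cells -0.34 and -0.16 and in B cells -0.32 and -0.15. The shorter members were lower relative to the longer ones in plasma cells as well, where both were above 0 (0.20 and 0.39).

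Across members the correlation of log2 ratio with log2 coding length was r = 0.69 in neutrophils (78 genes), 0.59 in monocytes, 0.46 in T cells, 0.51 in B cells and 0.75 in plasma cells. It was 0.53 in macrophages, 0.74 in dendritic cells and 0.39 in epithelial cells, and 0.07 in NK cells, with 29 cells in PBS. It was highest in the droplets without cells, at 0.86, where the shorter members had a median of -0.49 and the longer of -0.09. Among genes outside the family it was 0.14 in neutrophils, 0.31 in T cells, 0.27 in NK cells and 0.22 in the droplets without cells. For these genes it was -0.02 in plasma cells, -0.06 in dendritic cells and -0.12 in epithelial cells, so the relation differed by class. The points are genes measured in the same pair of libraries and are not independent. The ratio of mature to immature neutrophils, taken within a library, had an r of -0.13 in PBS and -0.18 in cmExoaCD11b. Whether fragment length, capture or the treatment lies behind the relation was not tested.

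**Figure D5:**
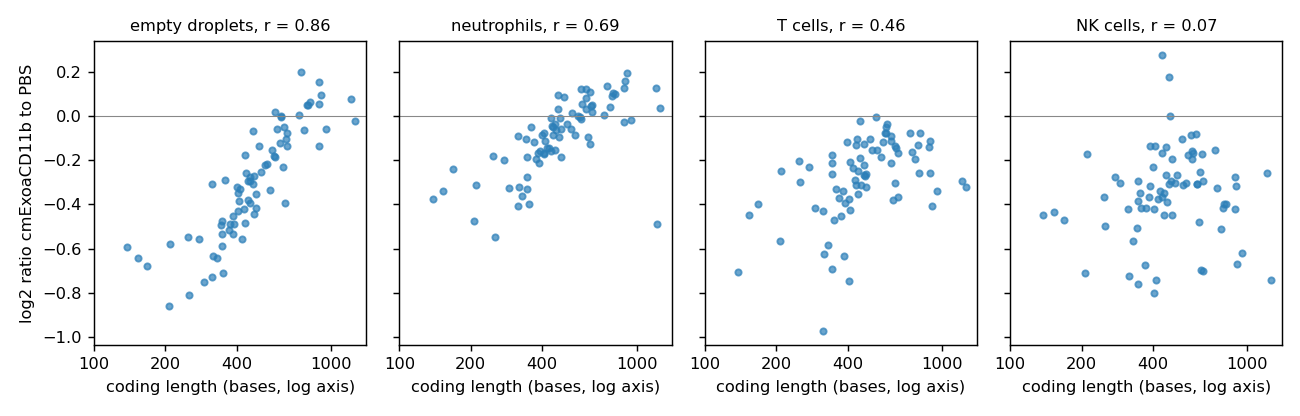
Log2 ratio of cmExoaCD11b to PBS (y axis) against coding length in bases (x axis, log scale) for each ribosomal protein gene, in droplets without cells, neutrophils, T cells and NK cells. In the droplets without cells, where r is 0.86, the short genes Rps28 and Rps27 lie lowest and the longer genes Rps6, Rpsa and Rps2 highest. In NK cells (29 cells in PBS), where r is 0.07, no such slope is seen.

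Other genes of the translation machinery were set beside the family. Of the 6 ribosomal proteins with other symbols, 3 were lower by 1.5-fold in mature than in immature neutrophils in both libraries. Their summed CPM, however, was higher in mature cells, with ratios of 1.08 in PBS and 1.06 in cmExoaCD11b. Fau was higher there at 1.41 and 1.35. Of the elongation factors 1 of 5 in PBS and 0 of 5 in cmExoaCD11b were lower, and of the initiation factors 12 of 24 and 14 of 24. Eif1, which guards start codon choice, was higher, with ratios of 1.68 and 1.42. Of the ribosome biogenesis genes tested, 7 of 15 and 6 of 17 were lower, and of the mitochondrial ribosomal protein genes 36 of 67 and 42 of 69, with Mrpl33 higher at 2.18 and 1.72. The background for these counts is the same 26.1% and 29.6% of all genes, and the stages differ in depth as given above.

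Between the libraries these lists had the direction of the family in T cells. The summed CPM of the 5 elongation factors had a ratio of 0.819 (0.804 to 0.833), that of the 24 initiation factors 0.918 (0.900 to 0.937) and that of the 6 ribosomal proteins with other symbols 0.905 (0.890 to 0.919). Eef1a1, which brings aminoacyl-tRNA to the ribosome, had 7620 CPM in PBS and 5930 CPM in cmExoaCD11b. The 10 mRNAs outside the family known to carry a TOP tract include Eef1a1, so they overlap with the elongation factors. Their summed CPM had a ratio of 0.918 (0.907 to 0.929) and their median log2 ratio was -0.28, while Tpt1 among them was higher, at 1.09. The median log2 ratio of the biogenesis genes was -0.31, with 5 of 29 lower by 1.5-fold, against 8.44% of all genes. In other classes some lists had the opposite direction to the family, with ratios of summed CPM of 1.12 for biogenesis genes in neutrophils, 1.19 for mitochondrial ribosomal proteins in monocytes (13 of 71 higher by 1.5-fold, against 17.2% of all genes) and 1.18 for initiation factors in dendritic cells.

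The genes whose levels ran most like the family's over classes were, for the most part, of the same machinery. Over 10 points, the 5 classes with at least 50 cells in each of the 2 libraries, and among 1575 genes ranked, Pearson's r of log2 CPM with the family's sum was 0.99 for Eef2, Nop10, Rack1, Rps3a1 and Gas5 and 0.98 for Eef1b2. Next in rank were Ghitm, Npm1, Eif3e and Syncrip, each at 0.98. Eef2 is the translocase of elongation, Rack1 and Rps3a1 are ribosomal proteins with other symbols, Nop10 belongs to the H/ACA particles that modify rRNA, and Gas5 is a non-coding host of small nucleolar RNAs with a TOP start. The points share libraries and the strong contrast of lymphocytes with neutrophils.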

How the data were processed

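Single-cell RNA-seq libraries from pancreatic tumours (10x Genomics droplets, V3 chemistry per the labels), 1 per treatment and each from 3 pooled mice, were analysed. The authors deposited a matrix of UMI counts per gene for all barcodes, unfiltered and not normalized. The file headers name Cell Ranger 7.1.0, the methods an earlier version, and the genome build is not given in the sources used here.

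Barcodes were called as cells by UMI rank (a 10th of the 99th percentile of the top 3000) or, from 500 UMIs, by a test against droplets of at most 100 UMIs (10000 simulations, FDR 0.01), which gave 7673 and 7858. Cells under 200 genes or above 20% mitochondrial UMIs were dropped, which left 7237 and 7498. Scrublet in scanpy 1.11.5 marked 0 doublets at its automatic threshold in both libraries, so the 419 and 450 cells with the highest scores were removed (0.8% per 1000 cells). The libraries held 67143628 (PBS) and 81288480 (cmExoaCD11b) UMIs over all barcodes.

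A class needed at least 2 of its markers, and plasma cells more than 2. A marker counted where its UMIs exceeded the 99th percentile expected if 20% of the cell's UMIs were free RNA, a limit set after the planned gate on any UMI had failed. Neutrophil stages, T cell subsets and precursors with Elane or Mpo were gated likewise. UMIs were summed per class, stage and library and expressed as percent of all UMIs or as CPM. Shares have exact Clopper-Pearson, levels exact Poisson and ratios exact conditional intervals at 95%, all for counting error only. Genes with at least 50 UMIs over the 2 sums compared were compared with a 1.5-fold limit. Steps were tested on simulated data. Computation used Python 3.11.15, numpy 2.4.6 and scipy 1.17.1.

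Members and lists were chosen with earlier results of these data known. Named were the 5 members highest over gated cells, Rpl10, the 3 highest and 3 lowest ratios per class of at least 100 cells in both libraries, the 5 highest and 5 lowest mature to immature ratios, the 2 members of largest excess per class, and the paralogs; a few named by this rule are not reported here. Alternatives covered cell calling, gates, depth, free RNA, denominators and fold limits. RefSeq start windows came from GRCm38.p6 and coding lengths, the longest per gene, from GENCODE M21.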

Additional observations from a re-analysis of the deposited data

Results flagged for a closer look

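Plasma cells and epithelial cells went against the other classes. The ratio of the ribosomal protein share in cmExoaCD11b to that in PBS was 1.22 in plasma cells and 1.15 in epithelial cells, and under 1 in the other 7 classes. In plasma cells the ratio of the medians over cells was 0.905, so the direction of the summed share was not that of the median cell, and 34 PBS cells were available. The median log2 ratio of the members was 0.31 in plasma cells, near the 0.32 of all genes tested there. In epithelial cells it was 0.20, against -0.10 for all genes. Under the alternatives that could be run the ratio of summed shares ranged from 1.07 to 1.23 in plasma cells and from 1.11 to 1.28 in epithelial cells.

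Rps27l differed in direction between classes, with a log2 ratio of cmExoaCD11b to PBS of 0.25 in monocytes and -0.97 in T cells. Its levels were 285 CPM in PBS and 339 CPM in cmExoaCD11b in monocytes, and 199 and 101 CPM in T cells.

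Each treatment has 1 library, so none of these differences between classes was tested.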

How the results depend on the processing

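Without replicates, a value was held to have moved where it left its counting interval, which is narrow. The values below come first for the T cell to neutrophil ratio and the precursor to mature ratio, each in PBS and then in cmExoaCD11b, and then for the ratio of cmExoaCD11b to PBS by class. With cells called by UMI rank alone they were 3.30 and 3.03, 3.68 and 3.91, and 0.951 in neutrophils, 0.907 in monocytes, 0.873 in T cells and 0.818 in B cells. Without doublet removal the T cell to neutrophil ratio in cmExoaCD11b was 3.15, the precursor to mature ratios 3.45 and 3.84, and the class ratios 0.968 in neutrophils, 0.855 in T cells and 0.870 in B cells. With 1 more marker per gate the values were 3.83 and 3.49, 3.31 and 3.36, and 0.944, 0.972, 0.861 (T cells) and 0.860 (B cells). With gates set on cells thinned to 1000 UMIs they were 3.28 and 2.97, and 0.940 in neutrophils, and the monocyte ratio reversed to 1.01, while the precursor to mature ratio had too few cells to be given. The cause of the reversal was not tested. With free RNA subtracted (an estimated 2.46% and 2.55% of UMIs) they were 3.66 and 3.24, 3.76 and 4.41, and 0.960 in neutrophils. That estimate rests on S100a8 and S100a9 in gated T and B cells. Cells that also met the neutrophil gate had been left out of these, so it may be too low. Without mitochondrial genes and Malat1 the first pair was 3.60 and 3.21. Without the 5 highest members the values were 3.63 and 3.24, 3.83 and 4.59, and 0.947 in neutrophils, 0.843 in T cells and 0.844 in B cells. By the mean of the share per cell they were 4.96 and 4.95, and 0.854 in neutrophils, 0.829 in monocytes, 0.853 in T cells and 0.916 in B cells. At most 10% mitochondrial UMIs gave 0.885 in monocytes.

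Further alternatives were chosen after seeing the data. Gates on any marker UMI gave 3.71 and 2.76, 2.85 and 3.26, and 0.941 in neutrophils, 0.700 in T cells and 0.842 in B cells. A free RNA limit of 10% gave 3.54 and 3.19, 3.43 and 4.05, and 0.952 in neutrophils, 0.939 in monocytes and 0.857 in T cells. Cells of 2000 to 8000 UMIs gave 6.26 and 7.28, and 0.721 in neutrophils, 0.929 in monocytes, 0.839 in T cells and 0.915 in B cells, with too few precursors for their ratio.

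Counts of members lower by 1.5-fold in cmExoaCD11b were 0 in neutrophils, 3 in monocytes, 6 in T cells and 2 in B cells. Centring on the median of all genes made them 3 in neutrophils and 7 in monocytes, a minimum of 20 UMIs 1 in neutrophils, thinned gates 1 in monocytes and 1 in B cells, and gates on any marker UMI 1 in neutrophils, 26 in T cells and 1 in B cells. A 2-fold limit left 0 in monocytes, 0 in T cells and 0 in B cells. Members lower in mature than in immature neutrophils numbered 46 in PBS and 48 in cmExoaCD11b. They numbered 73 in PBS with thinned gates, 26 in cmExoaCD11b with gates on any marker UMI, 22 and 19 in the depth window, and 17 and 17 at a 2-fold limit. The thinned gates and the gates on any marker UMI also changed which cells made up the stages. For neutrophils, monocytes, T cells and B cells, all other alternatives left the ratios within their counting interval and the counts within 1.5 times. For macrophages, dendritic cells and NK cells, only alternatives with at least 20 cells of the class in each library were used. With these the ratio ranged from 0.917 to 0.981 in macrophages, 0.817 to 0.951 in dendritic cells and 0.789 to 0.920 in NK cells. The depth window had too few cells of these classes. There macrophages had the opposite direction, at 7.84% in PBS (60 cells) and 11.7% in cmExoaCD11b (19 cells). Dendritic cells (8.45% and 5.86%) and NK cells (14.4% and 13.2%) were lower in cmExoaCD11b there. No paired analysis was possible because each treatment has 1 library.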
